A study of Drosophila melanogaster with 16 samples.

Results

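The proximal X chromosome examined here is the stretch of chromosome X from 11 Mb to below 22 Mb of the NCBI Release 6 genome of Drosophila melanogaster, toward the centromere, and it holds the roX2 gene. Its members were all transcripts that start in that stretch, except those of genes named CR and a number, which are mostly noncoding. They were 2249 of 28705 transcripts (1089 of 15953 gene symbols) in the table of autosomal aneuploidy and 2036 of 23991 (1031 of 13861) in the table of sex chromosomal aneuploidy, and 1975 transcripts were in both. Of the 1099 symbols in either table, 1054 were found in the Ensembl annotation of the same build, 1039 as protein coding genes and 15 as ncRNA genes, and 99.0% of the members had the start, end and strand of an annotated transcript. The distal X, which starts below 11 Mb, and the autosomal arms that were not trisomic were measured in the same way for comparison.

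RNA of whole larvae of the last instar, raised at 25 °C, was sequenced to ask how overexpression of MSL2 changes gene expression when the genome is unbalanced. The groups were MSL2-trisomy 2L females (2 X chromosomes), MSL2-trisomy 2L males (1 X), trisomy 2L females and trisomy 2L males without the transgene, all with 3 copies of arm 2L, and MSL2-metafemales and metafemales, with 3 X chromosomes and 2 sets of autosomes. Normal diploid females and males, Canton S according to the methods, were the controls. By the labels each group with trisomy 2L has 3 libraries and each group of metafemales 2, every library from a pool of whole larvae. The MSL2 transgene lies on chromosome 2R, and MSL2 larvae received it from homozygous fathers. According to the methods, trisomy 2L larvae and metafemales without the transgene had Canton S fathers. Groups with and without MSL2 thus also differed in the father's stock, and its part in the results below was not tested. Trisomy 2L larvae came from mothers of the stock y; C(2L)dp; F(2R) bw and metafemales from mothers with the compound chromosome C(1)DX. The tables give 1 mean for each group, in CPM (read counts scaled to the mapped total of a library) after a batch adjustment by the authors. No library has its own value, so no difference below could be set against the spread between replicates, no test was made, and the depth of the libraries is unknown. All ratios are ratios of the authors' means.

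In male flies the MSL complex, made of the proteins MSL1, MSL2, MSL3, MLE and MOF and the noncoding RNAs roX1 and roX2, binds the single X chromosome. MOF acetylates histone H4 at lysine 16 along active genes, and X-linked transcription in males reaches that of females with a pair of X chromosomes. The complex is thought to enter the X at high affinity sites, among them the roX genes, and to spread from there to active genes nearby. In females SXL blocks translation of the msl-2 message, and the complex forms only where MSL2 is supplied, as in the larvae studied here. The members were therefore ordered by their distance from roX2 and by their expression.

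The msl-2 message, the target of the transgene, had 177 CPM in MSL2-trisomy 2L females, against 20.1 CPM in trisomy 2L females. It had 266 CPM in MSL2-trisomy 2L males, against 52.8 CPM in trisomy 2L males, and 95.3 CPM in MSL2-metafemales, against 8.31 CPM in metafemales. It was thus higher in each group that carries the transgene. The spermatocyte gene aly was listed at 9.67 and 8.94 CPM in MSL2-trisomy 2L males and trisomy 2L males, at 0.045 CPM in trisomy 2L females and not in MSL2-trisomy 2L females, as the labelled sexes have it. Genes that mark the stage of the larvae also differed between groups. Sgs3, a salivary glue gene of larvae close to pupariation, had 179 CPM in MSL2-trisomy 2L females, 2319 CPM in trisomy 2L females and 6745 CPM in diploid females. It had 3493 CPM in MSL2-trisomy 2L males, 2425 CPM in trisomy 2L males and 6509 CPM in diploid males. In the sex chromosomal table it had 550 CPM in MSL2-metafemales, 1405 CPM in metafemales and 5550 CPM in diploid females. The other glue genes measured, Sgs5, Sgs7 and Sgs8, had the same order of groups in females and metafemales, and their part in the results below was not tested.

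The median proximal X transcript had nearly the same level with and without MSL2 in trisomy 2L. In females the median ratio of MSL2-trisomy 2L to trisomy 2L was 1.01 (log2 0.01, quartiles -0.56 and 0.51, 1787 transcripts with both means). In males it was 1.00 (log2 -0.00, quartiles -0.38 and 0.41, 1996 transcripts). In metafemales the median ratio of MSL2-metafemale to metafemale was 0.94 (log2 -0.09, quartiles -0.45 and 0.32, 1750 transcripts). The quartiles lie far wider than the medians, so single transcripts differed in both directions. In females 403 proximal X transcripts were at least 1.5-fold higher with MSL2, or 22.6%, beside 20.4% of all transcripts, and 435 were at least 1.5-fold lower, or 24.3%, beside 25.6%. In males 382 were higher, or 19.1%, beside 19.6%, and 356 lower, or 17.8%, beside 18.6%. In metafemales 315 were higher, or 18.0%, beside 19.7%, and 357 lower, or 20.4%, beside 21.9%. These shares were near those of all transcripts. With equal column totals the medians were -0.047 in females, -0.056 in males and -0.36 in metafemales, and with trimmed-mean scaling they were 0.11, -0.01 and -0.00026 in the same order.

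**Figure D1:**
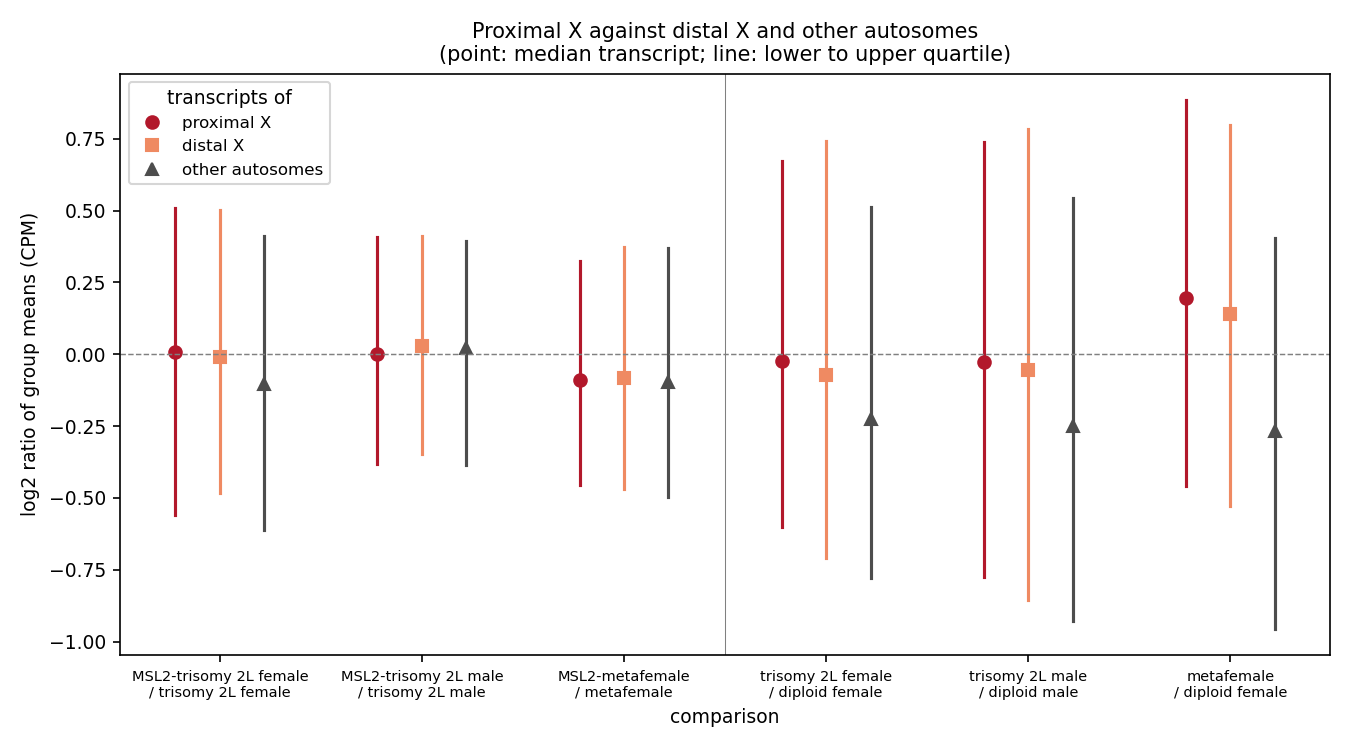
Median log2 ratio (point) and quartiles (line) of transcripts of the proximal X, the distal X and the other autosomes (vertical axis) in 6 comparisons (horizontal axis). The proximal X sits at 0.20 in metafemales over diploid females, against -0.27 on the autosomes, while with MSL2 over without MSL2 the regions differ by 0.11 or less.

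What differed between the regions was the position of the X against the autosomes in females. The proximal X median in MSL2-trisomy 2L over trisomy 2L females was 0.01, against -0.10 on the other autosomes, a difference of 0.11 on the log2 scale, or 1.08-fold. In MSL2-trisomy 2L over trisomy 2L males that difference was -0.02, and in MSL2-metafemales over metafemales it was 0.01. The proximal X differed from the distal X by 0.02, -0.03 and -0.01 in the same order, so both stretches of the X lay together. With a pseudocount of 1 CPM the difference from the autosomes in females was 0.06. The plot of medians by region shows these values beside those of the aneuploid to diploid ratios. The part of the father's stock in the difference in females was not tested.

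The ratio varied little with the distance from roX2. Spearman's rho of the MSL2 ratio with that distance, across transcripts, was 0.017 for trisomy 2L in females and -0.010 for trisomy 2L in males. It was 0.0045 for metafemales, and each n is given above. Transcripts of 1 gene share reads and are not independent, so rho is given as a description. Within 0.5 Mb of roX2 the median log2 ratio was -0.04 in trisomy 2L females (239 transcripts of 120 genes), 0.03 in trisomy 2L males (261 transcripts) and -0.09 in metafemales (236 transcripts). From 8 Mb on it was 0.03, -0.01 and -0.09 in the same order. In windows of 1 Mb the medians ran between -0.08 and 0.12 in females and between -0.06 and 0.11 in males. In metafemales 10 of 11 windows lay below 0, with the lowest at -0.15. That count goes with the scaling, since the median of the whole stretch in this comparison was -0.09 as deposited, -0.00026 with trimmed-mean scaling and -0.36 with equal column totals.

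**Figure D2:**
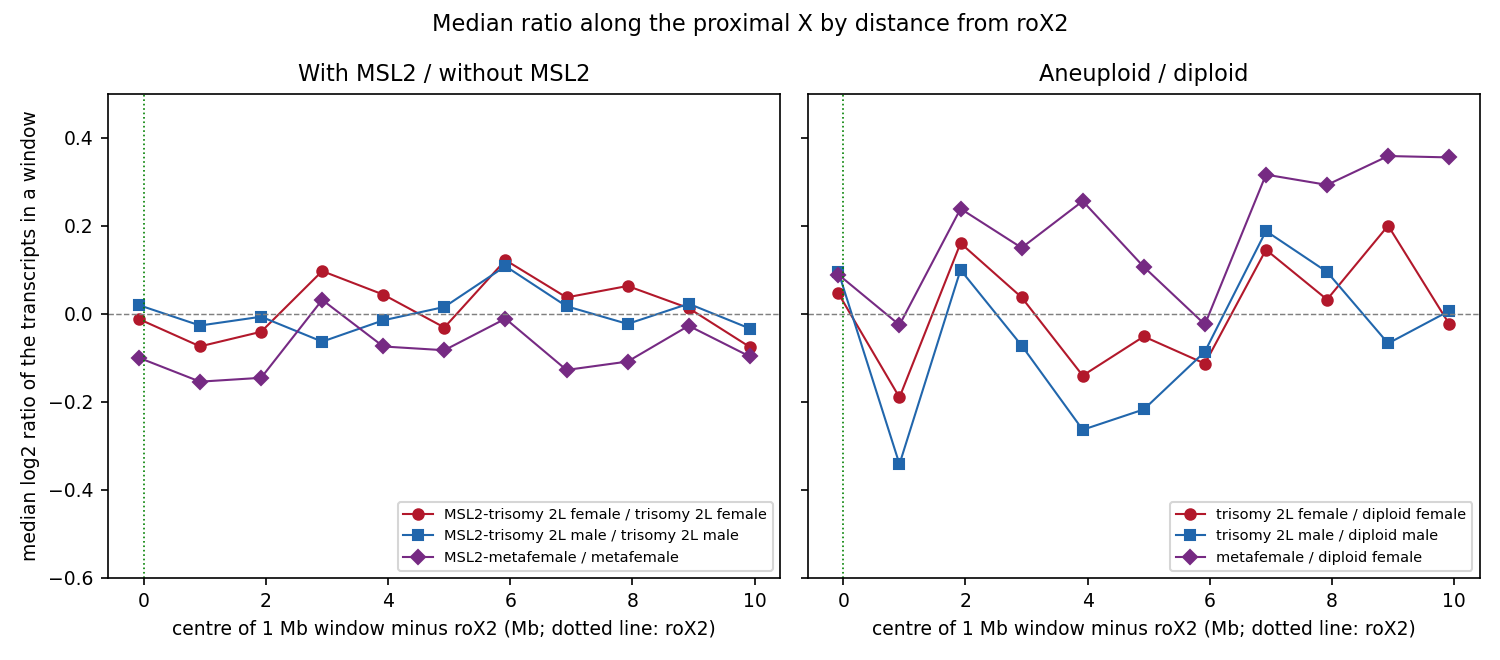
Median log2 ratio of the transcripts in each window of 1 Mb (vertical axis) against the distance of the window's centre from roX2 in Mb (horizontal axis), for MSL2 over non-MSL2 groups (left) and aneuploid over diploid groups (right). On the left the 3 lines stay between -0.15 and 0.12 along the whole stretch. On the right trisomy 2L males reach -0.34 in the window of 12 to 13 Mb.

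roX2 itself (X:11579065-11580432, plus strand, FBgn0019660, noncoding) is an RNA of the complex and is normally made in males. Summed over its transcripts it had 8.89 CPM in MSL2-trisomy 2L males, 5.01 CPM in trisomy 2L males and 9.23 CPM in diploid males. In females it had 0.61 CPM in MSL2-trisomy 2L, 0.52 CPM in trisomy 2L and 0.20 CPM in diploids. In the sex chromosomal table it had 0.72 CPM in MSL2-metafemales, 0.33 CPM in metafemales and 0.37 CPM in diploid females, against 47.8 CPM in diploid males. The female groups thus lay below 1 CPM with and without MSL2, far below every male group. The longest form gave most of it in the trisomy females: 0.460 CPM in MSL2-trisomy 2L females and 0.456 CPM in trisomy 2L females. The form that carried most reads in males had 0.146 CPM in MSL2-trisomy 2L females and 0.0636 CPM in trisomy 2L females, and was not listed in diploid females. roX1, which lies on the distal X, had 23.4 CPM in MSL2-trisomy 2L females and 15.9 CPM in trisomy 2L females, but 7.15 CPM in MSL2-metafemales and 11.6 CPM in metafemales.

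The genes that flank roX2 most closely and reach 1 CPM, 5 on each side, had ratios on either side of 1. In males, e(y)2, a subunit of the SAGA histone acetyltransferase complex, had 9.70 CPM in MSL2-trisomy 2L and 10.3 CPM in trisomy 2L. rho-4, a rhomboid family gene, had 65.7 CPM in MSL2-trisomy 2L females and 71.5 CPM in trisomy 2L females, and CG1703 had 91.0 CPM in MSL2-trisomy 2L females and 66.3 CPM in trisomy 2L females. nod, a chromokinesin that holds chromosomes on the meiotic spindle, starts next to roX2 and had 3.01 CPM in MSL2-trisomy 2L females and 4.38 CPM in trisomy 2L females. It had 7.46 CPM in MSL2-trisomy 2L males and 5.88 CPM in trisomy 2L males. CG2533 and CG11697 were near 0 in all female groups and at 12.1 to 19.2 CPM in both male trisomy groups, so their ratios in females rest on values below 1 CPM. Ratios above and below 1 occurred on both sides of roX2.

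For the comparison by expression, transcripts were put in classes by their mean in diploids of the same sex, a value that is not part of the MSL2 ratio. In females the median log2 MSL2 ratio was 0.17 below 1 CPM (387 transcripts), -0.06 from 1 to 10 CPM (648), -0.04 from 10 to 100 CPM (492) and -0.06 from 100 CPM (78). In males it was 0.13, -0.03, -0.01 and 0.01 in the same classes, and in metafemales -0.06, -0.11, -0.12 and -0.04. The range between quartiles in males was 1.38 below 1 CPM, 0.83 from 1 to 10 CPM, 0.49 from 10 to 100 CPM and 0.42 from 100 CPM. In metafemales it was 1.11, 0.97, 0.51 and 0.43 in the same classes. In females it was 1.37, 1.04, 0.79 and 1.07, so it was wider again among the most abundant transcripts. At 10 to 100 CPM the proximal X of females lay at -0.04, against -0.18 on the other autosomes, so the gap between the regions was also there among well expressed transcripts. The other autosomes lay below the proximal X in each class of listed transcripts in females.

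**Figure D3:**
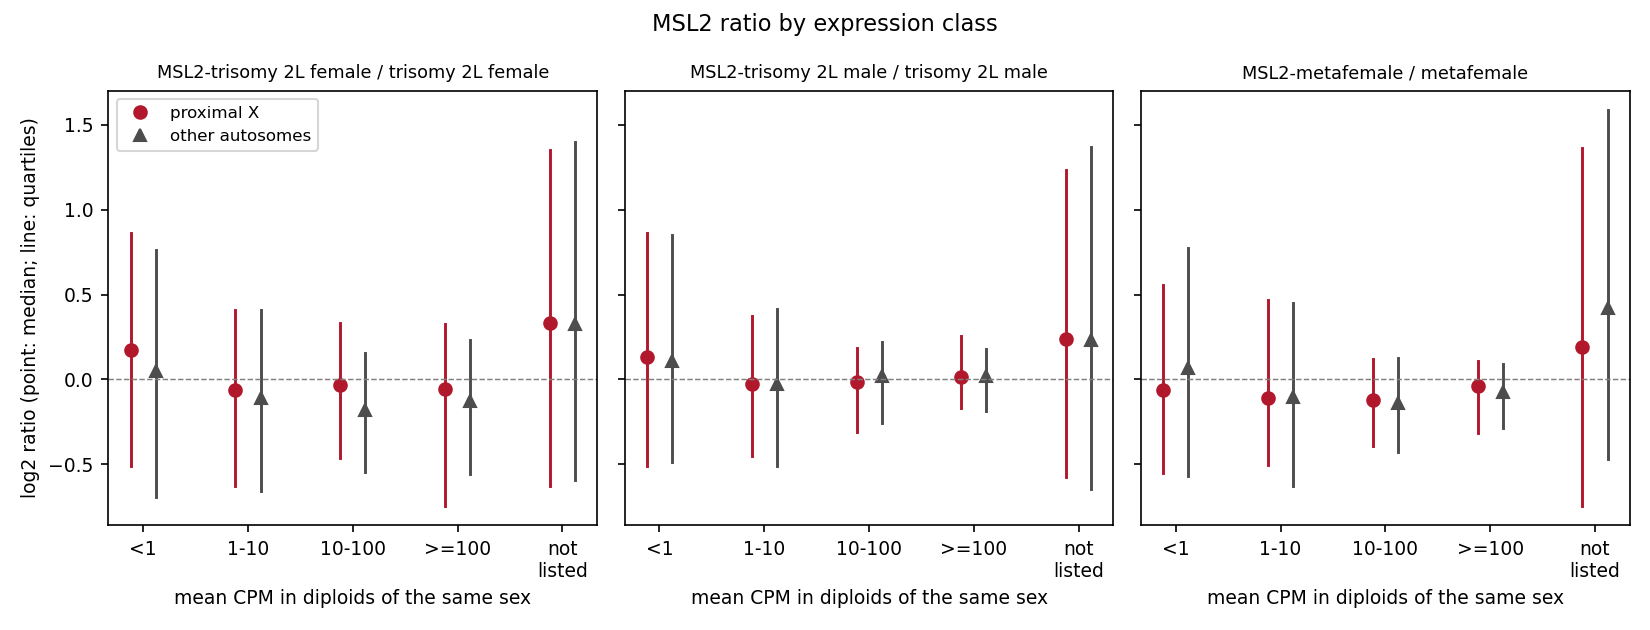
Median log2 ratio of MSL2 over non-MSL2 groups (point) and quartiles (line) by the mean CPM in diploids of the same sex (horizontal axis), for the proximal X and the other autosomes. In trisomy 2L females the proximal X lies at -0.04 and the autosomes at -0.18 from 10 to 100 CPM, and the quartiles are widest among transcripts not listed in diploids.

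Rare transcripts were often listed without MSL2 and absent with it. Values not above 0 were removed by the authors, so such transcripts are not listed for that group. Of 2090 proximal X transcripts listed in trisomy 2L females, 303 (14.5%) were not listed in MSL2-trisomy 2L females, and 33 were listed only with MSL2. In males 189 of 2185 (8.65%) were not listed with MSL2, and in metafemales 264 of 2014 (13.1%). The median level of those no longer listed was 0.143 CPM in trisomy 2L females, 0.344 CPM in trisomy 2L males and 0.306 CPM in metafemales. Of them 64, 61 and 77 had at least 1 CPM in the same order, so most, but not all, were rare. On the other autosomes 16.1% were no longer listed in females, 7.43% in males and 15.9% in metafemales. On the distal X it was 16.6%, 8.05% and 13.8% in the same order. The part of the sequencing run, the depth and the number of libraries in these shares was not tested. Ratios leave out transcripts that are not listed in both groups.

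Summed to genes, 135 of 928 proximal X genes were at least 1.5-fold higher in MSL2-trisomy 2L than in trisomy 2L females, or 14.5%, beside 13.8% of all genes, and 168 were lower, or 18.1%, beside 21.8%. In males 99 of 1058 were higher (9.36%, beside 12.5%) and 93 lower (8.79%, beside 11.5%). In metafemales 102 of 918 were higher (11.1%, beside 13.3%) and 122 lower (13.3%, beside 16.3%). The genes with the largest ratios, among those of at least 5 CPM in both groups, differed by background. They are given here as the ends of a distribution, not as tested changes.

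In females the highest ratio was that of CG46312, with 149 CPM in MSL2-trisomy 2L, 8.13 CPM in trisomy 2L and 29.1 CPM in diploids. It overlaps eIF5, a translation factor gene, on the same strand, so the split of reads between them is uncertain. CG8206 (267 CPM in MSL2-trisomy 2L and 72.5 CPM in trisomy 2L females) and CG15221 (34.8 and 10.9 CPM in that order) came next. CG12715 had the lowest ratio, with 44.5 CPM in MSL2-trisomy 2L and 286 CPM in trisomy 2L females. CG1518, the catalytic STT3B subunit of oligosaccharyltransferase, which puts sugar chains on nascent proteins, had 23.4 CPM in MSL2-trisomy 2L and 146 CPM in trisomy 2L females. CG9903 had 11.7 and 65.1 CPM in that order. Of these 6 genes none was 1.5-fold or more in the same direction in MSL2-metafemales over metafemales, except CG15221, with 47.5 CPM in MSL2-metafemales and 31.3 CPM in metafemales.

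In males the highest ratio was that of CG2444, with 1142 CPM in MSL2-trisomy 2L, 175 CPM in trisomy 2L and 444 CPM in diploids. CkIalpha, a casein kinase that primes beta-catenin for degradation, had 230 CPM in MSL2-trisomy 2L and 74.9 CPM in trisomy 2L males. 1 of its transcripts gave most of the gap, with 177 CPM in MSL2-trisomy 2L and 23.7 CPM in trisomy 2L males. CG9981 had 47.3 CPM in MSL2-trisomy 2L and 15.9 CPM in trisomy 2L males. At the low end, furrowed (fw), a cell adhesion selectin, had 8.37 CPM in MSL2-trisomy 2L and 27.8 CPM in trisomy 2L males. Pde9, a cyclic GMP phosphodiesterase, had 5.08 and 16.6 CPM in that order, and Tob, a regulator of mRNA deadenylation, 5.07 and 14.3 CPM. Tob overlaps a microRNA gene on the same strand.

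In metafemales the highest ratio was that of highwire (hiw), a ubiquitin ligase that restrains synapse growth, with 183 CPM in MSL2-metafemales, 13.9 CPM in metafemales and 3.08 CPM in diploid females, from 1 transcript. Smr, a corepressor of nuclear receptors that include the ecdysone receptor, had 555 CPM in MSL2-metafemales, 53.9 CPM in metafemales and 139 CPM in diploid females, and it shares its strand with a noncoding gene. Nearly all of it came from 1 transcript, with 551 CPM in MSL2-metafemales and 37.1 CPM in metafemales, while another had 4.53 CPM in MSL2-metafemales and 12.1 CPM in metafemales. CG8184, a ubiquitin ligase of the HUWE1 kind, had 93.5 CPM in MSL2-metafemales and 13.2 CPM in metafemales. The lowest ratios were those of Ca-14F, with 7.35 CPM in MSL2-metafemales and 34.6 CPM in metafemales, inflated (if, the alpha PS2 integrin; 15.8 and 68.0 CPM) and Gbeta13F (a G protein beta subunit; 12.8 and 49.3 CPM). inflated and Gbeta13F were also low with MSL2 in trisomy females. inflated had 18.9 CPM in MSL2-trisomy 2L and 55.3 CPM in trisomy 2L females, and Gbeta13F 3.32 and 22.2 CPM. Most of the gap of Gbeta13F came from a transcript with 14.3 CPM in trisomy 2L females that was not listed in MSL2-trisomy 2L females. Its main listed forms had 2.11 and 1.21 CPM in MSL2-trisomy 2L females, against 5.12 and 1.85 CPM in trisomy 2L females.

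**Figure D4:**
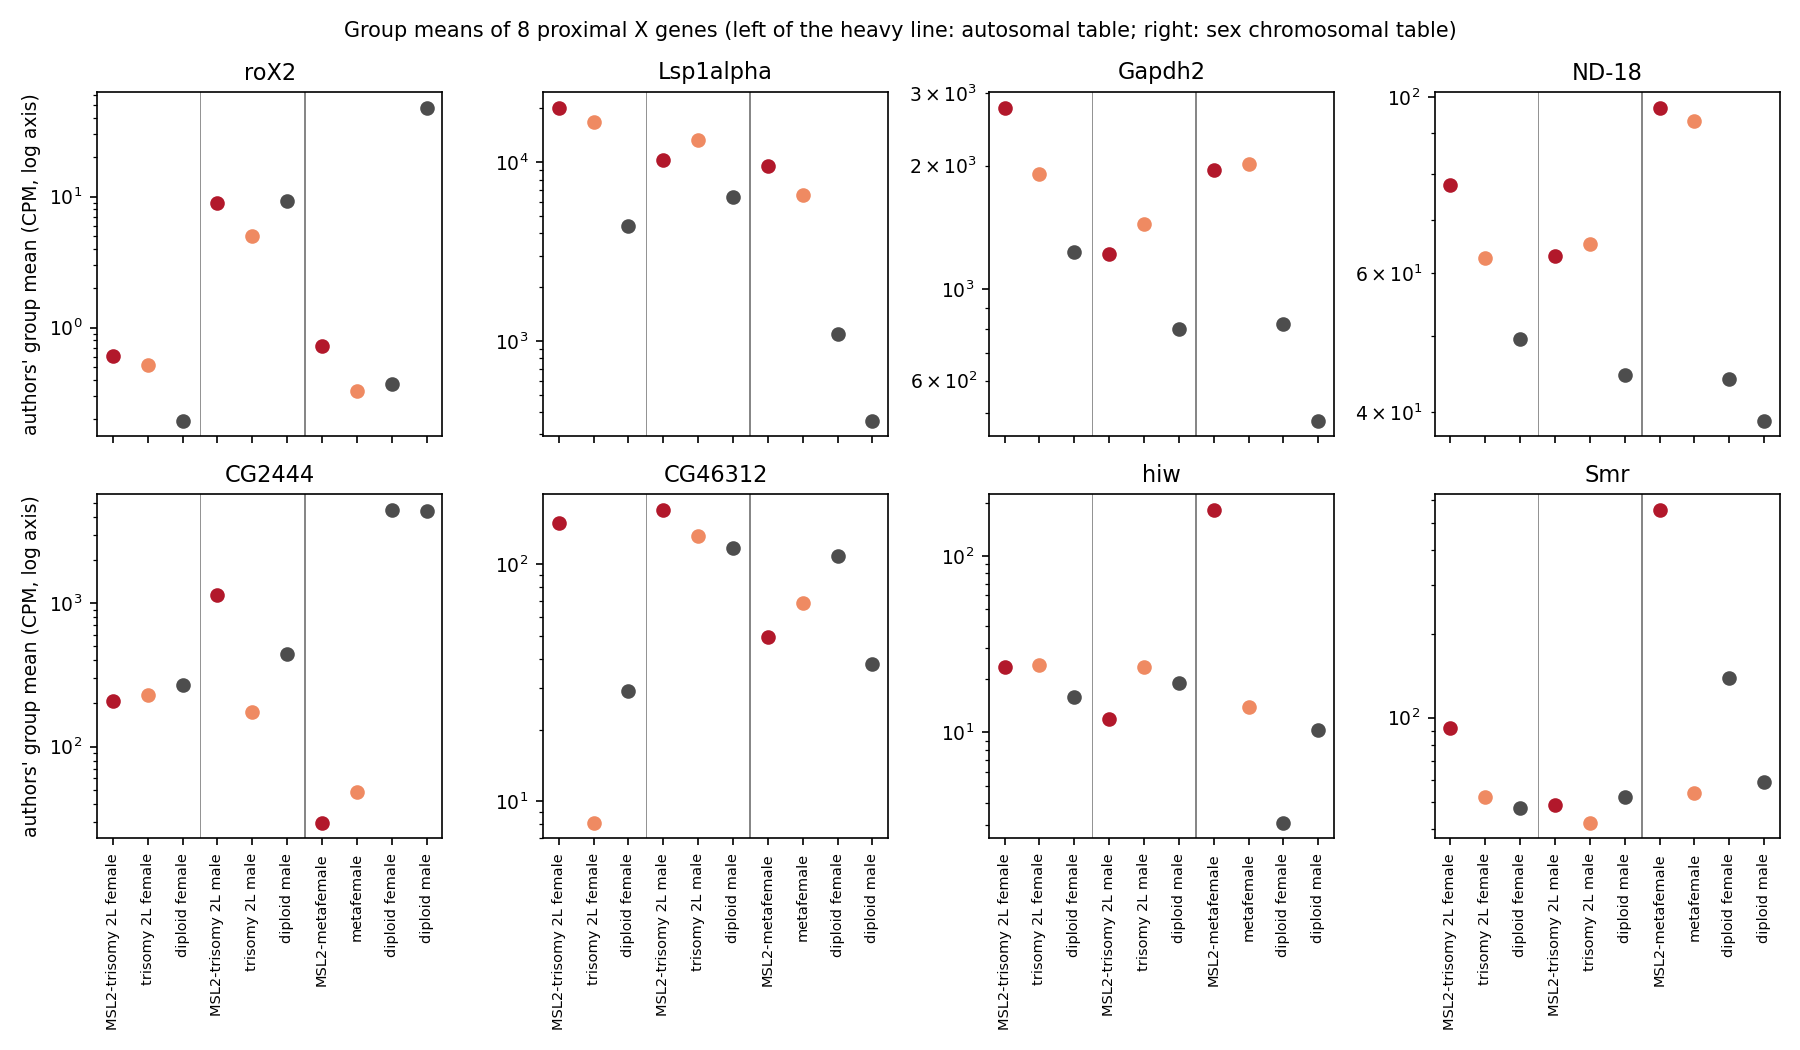
The authors' group means in CPM (vertical axes, log scale) of 8 proximal X genes in each group (horizontal axes). roX2 separates the male from the female groups, and in MSL2-metafemales hiw stands at 183 CPM and Smr at 555 CPM, their highest means. Diploid means of CG2444 differ between the tables, 270 and 4473 CPM in females. Those of CG46312 are 29.1 and 109 CPM and those of hiw 15.8 and 3.08 CPM in females, in the same order.

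Against the diploids the proximal X lay highest in metafemales. There, with 3 X chromosomes against 2 in diploid females, the median ratio was 1.15 (log2 0.20, quartiles -0.46 and 0.88, 1868 transcripts). In trisomy 2L, where the X has its normal number, it was 0.98 in females over diploid females (log2 -0.02, 1802 transcripts) and 0.98 in males over diploid males (log2 -0.03, 1959 transcripts). With trimmed-mean scaling these medians were 0.40 for metafemales, 0.082 for trisomy 2L females and 0.14 for trisomy 2L males, so the sign for trisomy 2L depends on the scaling. As deposited, the other autosomes lay lower in each: -0.27 for metafemales, -0.23 for trisomy 2L females, -0.25 for trisomy 2L males. The proximal X was thus 1.38-fold above the autosomes in metafemales, 1.15-fold in trisomy 2L females and 1.17-fold in trisomy 2L males. The distal X lay within 0.06 of the proximal X in all 3. The methods place the diploid libraries in another sequencing run than the MSL2 libraries, with shorter reads, and which trisomy and metafemale libraries entered the means is not stated, so the part of the run in these ratios was not tested.

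In metafemales 636 proximal X transcripts were at least 1.5-fold higher than in diploid females, or 34.0%, beside 22.6% of all transcripts, and 380 were lower, or 20.3%, beside 34.9%. In trisomy 2L females 506 were higher, or 28.1%, beside 26.3%, and 457 lower, or 25.4%, beside 30.6%. In trisomy 2L males 562 were higher, or 28.7%, beside 26.1%, and 606 lower, or 30.9%, beside 34.7%. By size, 22.1% of the proximal X transcripts of metafemales had a ratio from 1.25 to below 2, against 13.9% of autosomal transcripts. Another 22.2% had a ratio of 2 or more, against 13.4% of autosomal ones. A further 26.8% lay from 0.8 to below 1.25, against 25.0% of autosomal ones, and 12.7% lay below 0.5, against 23.8%. No single interval held most of the stretch. Summed to genes, 334 of 997 were higher in metafemales than in diploid females, or 33.5%, beside 19.6% of all genes, and 126 were lower, or 12.6%, beside 31.9%. In trisomy 2L females 298 of 989 genes were higher (30.1%, beside 24.7%) and 182 lower (18.4%, beside 26.6%). In trisomy 2L males 279 of 1050 were higher (26.6%, beside 22.9%) and 277 lower (26.4%, beside 33.9%).

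**Figure D5:**
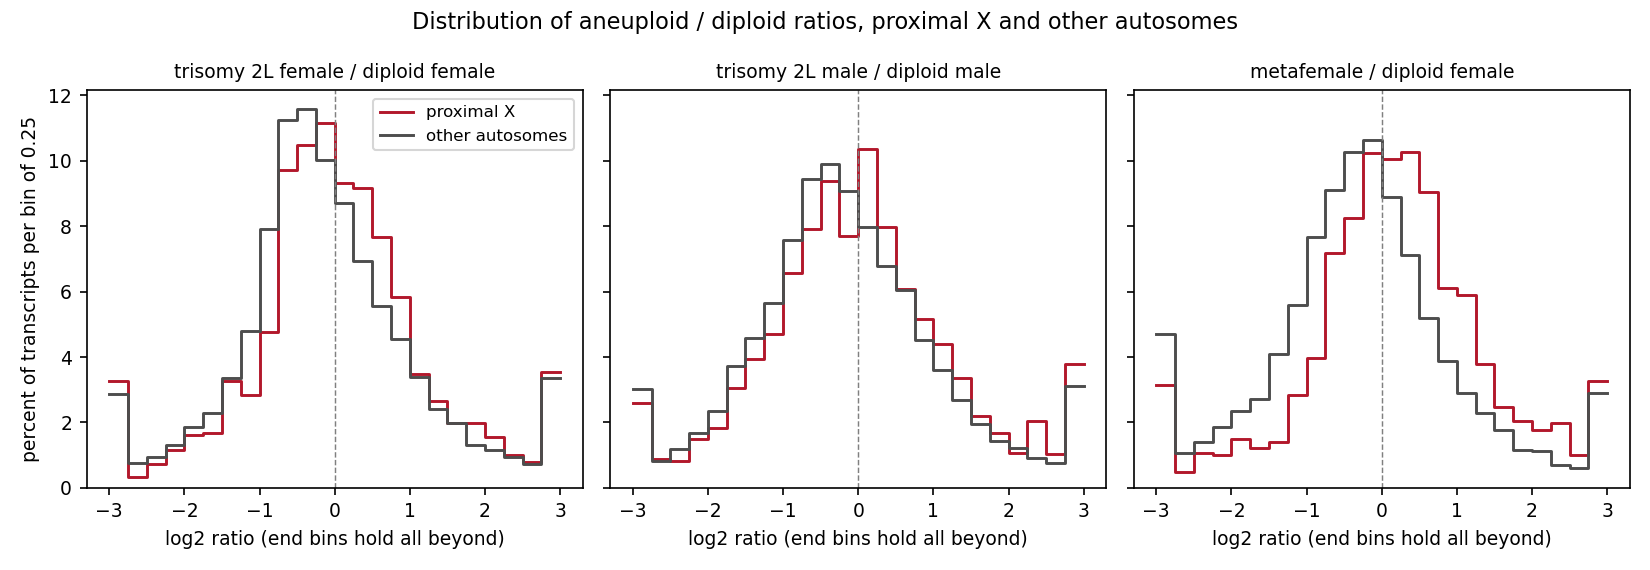
Share of transcripts (vertical axis, percent per bin of 0.25) by log2 ratio of the aneuploid to the diploid mean (horizontal axis) for the proximal X and the other autosomes. In metafemales the proximal X curve lies to the right of the autosomal one, with 22.1% of transcripts at ratios from 1.25 to below 2, against 13.9%. At ratios of 2 or more the shares are 22.2% and 13.4% in the same order.

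Along the stretch these ratios were less even than those of MSL2. The rank correlation with distance from roX2 was -0.0008 for trisomy 2L females and -0.0033 for trisomy 2L males, and 0.048 for metafemales. The window from 12 to 13 Mb was the lowest in all 3 comparisons, at -0.19 for trisomy 2L females, -0.34 for trisomy 2L males and -0.03 for metafemales, where the window from 17 to 18 Mb was at -0.02. At 4 to 6 Mb from roX2 the medians were -0.21 in trisomy 2L females (472 transcripts) and -0.26 in trisomy 2L males (487 transcripts). At 6 to 8 Mb they were 0.08 and 0.16 in the same order. In metafemales the windows of 18 to 22 Mb, nearest to the centromere, had the highest medians, from 0.29 to 0.36. Longer genomic spans went with slightly higher ratios, with rho of 0.087 for trisomy 2L females, 0.136 for trisomy 2L males and 0.067 for metafemales, across the same transcripts.

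With MSL2 added, the medians against the diploids were 0.04 in MSL2-trisomy 2L females, -0.01 in MSL2-trisomy 2L males and 0.11 in MSL2-metafemales. The sign of these medians depends on the scaling: with equal column totals they were -0.056, -0.12 and -0.080 in the same order, and with trimmed-mean scaling 0.20, 0.12 and 0.41. They stood 0.33, 0.22 and 0.50 above the other autosomes, a difference that scaling does not move. In MSL2-metafemales 593 proximal X transcripts were at least 1.5-fold above diploid females, or 35.5%, beside 25.8% of all transcripts, and 434 were below, or 26.0%, beside 40.3%. In MSL2-trisomy 2L females 540 were above, or 33.3%, beside 29.3%, and 532 below, or 32.8%, beside 36.9%. In MSL2-trisomy 2L males 593 were above, or 31.9%, beside 29.0%, and 579 below, or 31.2%, beside 35.3%. These comparisons share their diploid means with the ones without MSL2. The proximal X held 8.95% of the summed CPM of MSL2-metafemales and 9.62% of that of metafemales, against 7.14% in diploid females of the same table. It held 7.79% in MSL2-trisomy 2L females and 7.50% in trisomy 2L females, against 6.32% in diploid females. The MSL2-metafemale means sum to 1062350 CPM, more than CPM can reach before adjustment. Those of metafemales sum to 882378 CPM and those of diploid females of the same table to 930903 CPM. Ratios between these groups carry the differences in total.

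The most abundant member was Lsp1alpha (X:12490291-12492982, plus strand), a serum protein that the fat body secretes and stores before metamorphosis. It had 20206 CPM in MSL2-trisomy 2L females, 16779 CPM in trisomy 2L females and 4418 CPM in diploid females. In males it had 10321 CPM in MSL2-trisomy 2L, 13276 CPM in trisomy 2L and 6429 CPM in diploids. In the other table it had 9542 CPM in MSL2-metafemales and 6586 CPM in metafemales, against 1090 CPM in diploid females. It is known to escape dosage compensation in males. Gapdh2, a glycolytic enzyme, had 2767 CPM in MSL2-trisomy 2L females, 1903 CPM in trisomy 2L females and 1230 CPM in diploid females, and 2023 CPM in metafemales, against 826 CPM in diploid females. Both were higher in each aneuploid group than in its diploid.

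Among the well known genes of the stretch are those of troponin subunits of muscle. upheld (up), which encodes troponin T, had 2005 CPM in metafemales and 661 CPM in diploid females, 947 CPM in trisomy 2L females and 318 CPM in diploid females, and 1531 CPM in trisomy 2L males and 279 CPM in diploid males. wupA, which encodes troponin I, had 2102 CPM in metafemales and 822 CPM in diploid females, 1318 CPM in trisomy 2L females and 1127 CPM in diploid females, and 1529 CPM in trisomy 2L males and 1067 CPM in diploid males. The actin gene Act57B, which is not on the X and marks muscle, had 10684 CPM in metafemales and 1876 CPM in diploid females. In the autosomal table it had 10084 CPM in trisomy 2L and 6039 CPM in diploid females, and 11630 and 4969 CPM in males. Mhc, the other muscle marker measured, had 185 CPM in metafemales and 52.8 CPM in diploid females. In the autosomal table Mhc had 770 CPM in trisomy 2L and 6.44 CPM in diploid females, and 228 and 9.65 CPM in males. The part of tissue content in these levels was not tested. In whole larvae, more cells of a type and more RNA per cell cannot be told apart.

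Among the largest ratios to the diploid, TwdlX, a Tweedle cuticle protein, had 55.4 CPM in metafemales and 5.13 CPM in diploid females, and CG32603 had 150 CPM in trisomy 2L females and 15.8 CPM in diploid females. CG9672, a serine protease of the trypsin kind, had 138 CPM in trisomy 2L females, against 23.5 CPM in diploid females, and 160 CPM in trisomy 2L males, against 13.2 CPM in diploid males. CG9509, an oxidoreductase of the glucose-methanol-choline family, had 139 CPM in trisomy 2L females, against 22.4 CPM in diploid females. At the low end CG2444 had 48.1 CPM in metafemales, against 4473 CPM in diploid females, but the diploid females of the autosomal table had 270 CPM, so its level in diploids depended on the table. CG1518 had 13.7 CPM in trisomy 2L males and 177 CPM in diploid males. mR-cap had 7.30 CPM in trisomy 2L males and 57.1 CPM in diploid males. Diploid means of other genes here also differed between the autosomal and the sex chromosomal table. In diploid females TwdlX had 15.8 and 5.13 CPM in that order, CG32603 15.8 and 3.71 CPM, and CG9672 23.5 and 89.7 CPM. CG9672 had 85.0 CPM in metafemales. The main transcript of CG1518 had 177 and 58.8 CPM in diploid males, while mR-cap had 53.6 and 48.0 CPM in diploid females.

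Subunits of the respiratory chain lie in the inner membrane of mitochondria. Of 7 such genes of the proximal X, 6 were at least 1.5-fold higher in metafemales than in diploid females, where 19.6% of all genes were, and the median log2 ratio was 1.08. The 71 genes of the same name classes elsewhere had a median of 0.43 and 23 past 1.5-fold. COX6B, a subunit of cytochrome c oxidase, had 476 CPM in MSL2-metafemales, 441 CPM in metafemales and 197 CPM in diploid females. ND-18, a subunit of complex I, had 97.0 CPM in MSL2-metafemales, 93.3 CPM in metafemales and 44.0 CPM in diploid females. ND-24, also of complex I, had 130, 124 and 57.3 CPM in that order. SdhBL, a paralog of a succinate dehydrogenase subunit, was below 1 CPM in all female groups and above 40 CPM in all male groups, so its place among the 6 rests on low values. In trisomy 2L females over diploid females the median of the 7 was 0.02, and in MSL2-trisomy 2L over trisomy 2L females it was 0.44, with all 7 above 0 and 1 past 1.5-fold. The 61 genes elsewhere had a median of 0.34 in that comparison.

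The 5 cytosolic ribosomal protein genes of the stretch had similar means with and without MSL2, other than RpS15Aa in females. RpS15Aa had 658 CPM in MSL2-trisomy 2L females, 1358 CPM in trisomy 2L females and 2069 CPM in diploid females, but 1141, 1213 and 1938 CPM in the male groups in that order. RpS5a, RpL37a, RpS10b and RpS19a had log2 MSL2 ratios from 0.01 to 0.33 in females. Of 8 cytochrome P450 genes with both means, 7 were at least 1.5-fold higher in metafemales than in diploid females, beside 19.6% of all genes, with a median log2 of 0.93, against 31 of 66 such genes elsewhere. Cyp4s3 had 99.1 CPM in metafemales and 22.7 CPM in diploid females. Cyp18a1, which inactivates ecdysone, had 17.3 and 10.7 CPM in that order. The 3 proteasome genes, Prosalpha4, Rpt3 and Rpt6, lay from -0.78 to -0.28 on the log2 scale in metafemales over diploid females. The 43 such genes elsewhere had a median of -0.64, and 25 were at least 1.5-fold lower, beside 31.9% of all genes.

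Of 49 well known genes of the stretch, chosen by name, 47 had both means in trisomy 2L females, and 6 were at least 1.5-fold higher and 10 lower in MSL2-trisomy 2L than in trisomy 2L females, beside 13.8% and 21.8% of all genes. In males 6 of 47 were higher and 2 lower, beside 12.5% and 11.5%. In metafemales 5 of 49 were higher and 7 lower, beside 13.3% and 16.3%. RpII215, the largest subunit of RNA polymerase II, had 79.8 CPM in MSL2-trisomy 2L females and 79.4 CPM in trisomy 2L females. It had 108 CPM in MSL2-metafemales, 135 CPM in metafemales and 115 CPM in diploid females. Chc, the clathrin heavy chain, had 380 and 369 CPM in MSL2-trisomy 2L and trisomy 2L females. hop, the Janus kinase of the fly, had 43.2 CPM in MSL2-metafemales, 55.1 CPM in metafemales and 36.5 CPM in diploid females. para, a sodium channel of nerve cells, had 12.9 CPM in metafemales and 7.89 CPM in diploid females. Zw, the first enzyme of the pentose phosphate pathway, had 40.8 CPM in MSL2-trisomy 2L females, 25.4 CPM in trisomy 2L females and 12.2 CPM in diploid females.

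Between the sexes, the diploids differed between the tables. The median log2 ratio of diploid males to diploid females on the proximal X was 0.01 in the autosomal table (1736 transcripts) and -0.23 in the sex chromosomal table (1765 transcripts). Against the other autosomes the proximal X lay at -0.10 in the autosomal table and -0.18 in the sex chromosomal table. In trisomy 2L males over trisomy 2L females it lay at -0.10 against the autosomes, and in MSL2-trisomy 2L males over MSL2-trisomy 2L females at -0.22. Male-biased transcripts were those at least 2-fold higher in diploid males. In trisomy 2L females their median log2 MSL2 ratio was 0.13 on the proximal X, against -0.19 on the other autosomes (236 and 1940 transcripts). Their quartiles on the proximal X were -0.74 and 0.82. Female-biased ones had 0.14 (185 transcripts), against -0.05 on the autosomes, and those under 2-fold had -0.03 (1122 transcripts), against -0.12. In males the 3 classes lay between -0.06 and 0.00 on the proximal X. In MSL2-metafemales over metafemales male-biased transcripts lay at -0.18 on the proximal X, against -0.13 on the autosomes. Female-biased ones lay at -0.13, against -0.07, and those under 2-fold at -0.09, against -0.10.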

How the data were processed

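Processed values only were used. According to the methods, the authors aligned reads with HISAT2 to the NCBI Release 6 genome, assembled and quantified transcripts with StringTie, and divided read counts by mapped reads to give CPM. They adjusted CPM for the sequencing batch with ComBat on a temporary log scale, dropped any value of 0 or less, and took the mean over replicates. The deposited means are thus batch-adjusted CPM, 1 per group and transcript. The deposited MSL2-metafemale column was handled as a signal, since it sums to 1062350. The deposited tables also hold the authors' ratio columns of aneuploid to diploid, and ratios of MSL2 groups, which were not used. Ratios were recomputed from the means with no pseudocount (numpy 2.4.6, pandas 2.3.3, scipy 1.17.1), wherever both means were listed, and checked on simulated data. A feature was counted as higher or lower from 1.5-fold on. With 1 mean a group no test, interval from replicates or depth could be had, and the precision of each value is unknown. Gene values are sums over listed transcripts, and whether counting used strand is not given in the sources used here. Named were roX2 and its 5 neighbours on each side from 1 CPM, the 3 largest ratios in each direction from 5 CPM, the 10 genes most abundant in diploid females, a list of well known genes, and gene families by name. Members and lists were chosen with earlier results of these data known. Motifs in promoters were planned and not analysed here. Alternatives were CPM minimums, pseudocounts, scalings, region borders and gene sums.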

Additional observations from a re-analysis of the deposited data

How the results depend on the processing

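No paired analysis was possible because the tables hold 1 mean for each group, and leaving out replicates could not be run for the same reason. Moving the borders to 12 or 20 Mb, or keeping the CR genes, moved no median beyond its band. The band of a median is a 95% rank interval across transcripts. It takes them as independent, which they are not, and it does not hold the spread between replicates. The cause of the shifts below was not tested, except that scalings move every ratio of a comparison alike. All values are on the log2 scale unless named as rho. With equal column totals the proximal X median was -0.047 in MSL2-trisomy 2L over trisomy 2L females, -0.056 in males, -0.36 in MSL2-metafemales over metafemales and 0.27 in metafemales over diploids. Against the diploids it was -0.056 in MSL2-trisomy 2L females, -0.12 in MSL2-trisomy 2L males and -0.080 in MSL2-metafemales. The sign turned from 0.04 in MSL2-trisomy 2L females and from 0.11 in MSL2-metafemales over diploids. It also turned from 0.01 in MSL2-trisomy 2L over trisomy 2L females. With trimmed-mean scaling, which moved all transcripts by over 0.1 in some comparisons, the MSL2 medians were 0.11 in trisomy 2L females and -0.00026 in metafemales. Those against the diploids were 0.082 for trisomy 2L females, 0.14 for trisomy 2L males, 0.40 in metafemales, 0.20 in MSL2-trisomy 2L females, 0.12 in MSL2-trisomy 2L males and 0.41 in MSL2-metafemales. From 10 CPM on the medians were -0.044 in MSL2-metafemales over metafemales, 0.30 in metafemales and 0.20 in MSL2-metafemales over diploids, and the gap to the autosomes was 0.55 in metafemales and 0.29 in trisomy 2L females. With a pseudocount of 0.5 CPM the metafemale median was 0.12. The gaps to the autosomes against the diploids were then 0.35 in MSL2-metafemales, 0.21 in MSL2-trisomy 2L females, 0.14 in MSL2-trisomy 2L males, 0.28 in metafemales, 0.10 for trisomy 2L females and 0.13 for trisomy 2L males. With 1 CPM they were 0.28, 0.16, 0.11, 0.21, 0.070 and 0.11 in the same order, and 0.058 in MSL2-trisomy 2L over trisomy 2L females. The medians with 1 CPM were 0.05 in MSL2-metafemales and 0.089 in metafemales over diploids, and -0.047 in MSL2-metafemales over metafemales. Summed to genes, the medians were 0.26 in metafemales and 0.087 in trisomy 2L females over diploids, and the gaps 0.42 in MSL2-trisomy 2L females, 0.52 in metafemales, 0.30 for trisomy 2L females and 0.30 for trisomy 2L males. The median at 10 CPM or more minus that below 10 CPM was, for gene sums, 0.058 in MSL2-metafemales over metafemales, -0.10 in metafemales and -0.25 in trisomy 2L females over diploids. With classes from the ratio's own means it was 0.10, 0.21 and 0.086 in the same order, and 0.04 in MSL2-trisomy 2L over trisomy 2L females, where the classes used above gave -0.01, 0.04, -0.08 and -0.05. The rho with distance was 0.048 in trisomy 2L females over diploids from 1 CPM on, and 0.040 for gene sums in MSL2-trisomy 2L over trisomy 2L males. The gaps to the autosomes against the diploids were positive in all values given here.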

Other observations

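Transcripts of 1 gene often lay on opposite sides. Among proximal X genes with at least 2 transcripts of 1 CPM or more in either group, 96 of 355 (27.0%) had 1 transcript at least 1.5-fold higher and another at least 1.5-fold lower in MSL2-trisomy 2L than in trisomy 2L females, against 22.9% of such genes on the other autosomes. In trisomy 2L males over diploid males it was 126 of 379 (33.2%), against 23.2%. In MSL2-metafemales over metafemales it was 89 of 371 (24.0%), against 24.1%. In MSL2-trisomy 2L males over diploid males it was 133 of 362 (36.7%), against 29.8%, and CkIalpha is an example in that comparison. The transcript that reached 177 CPM in MSL2-trisomy 2L males had 23.7 CPM in trisomy 2L males and 25.6 CPM in diploid males, while another had 26.2, 25.7 and 117 CPM in that order.

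The MSL2 ratios of proximal X transcripts had a rank correlation of 0.158 between trisomy 2L females and metafemales (1593 transcripts), 0.021 between trisomy 2L females and males (1670 transcripts) and 0.028 between trisomy 2L males and metafemales (1620 transcripts). The first pair comes from separate tables. Transcripts share their base composition and gene structure between the groups, and no test was made.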
